A study of Capra hircus with 6 samples.

Results

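Hotspot windows are 100000 bp stretches of the goat genome that hold many of the regions the authors listed as differing in chromatin accessibility between the dry period and lactation. They were chosen by measured values of that comparison. Each of the 29 numbered chromosomes was cut into fixed bins of 100000 bp from position 1. Every listed region was placed by its centre, with no filter on its p-value beyond that of the authors' list. Bins with 10 or more listed regions were kept. Chromosome 23 from 17 to 22 Mb, a single stretch with 325 listed regions (314 of them in set 1, defined below), was left out. This gave 266 hotspot bins of 24602 bins (1.08%). Their 3340 regions, called members here, are 11.1% of the 29978 regions listed on numbered chromosomes and come from a table of 30714 regions in all.

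The regions come from ATAC-seq, a method that uses a transposase to insert sequencing adapters where DNA is not wrapped around nucleosomes, on mammary epithelial cells from the mammary gland of *Capra hircus*. The labels give 3 dry period libraries, taken while the gland rests between lactations, and 3 libraries from the lactation period. They name no strain, age, parity or treatment beyond the period, and leave it unsaid if each library is of its own goat, so p-values here reflect no more than how these libraries vary, a spread that may be technical. In the authors' deposited table each region has a position, a width, a fold change (the ratio of one period over the other, always above 1), a p-value and a Benjamini-Hochberg false discovery rate (FDR), and its name puts it in 1 of 2 sets, called set 1 and set 2 here, each taken as the regions with more signal in 1 of the periods.

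Which set belongs to which period is not stated in the sources used here, so every direction below is given by set. The table holds no value per library, the read depth is unknown, and no region that failed to differ is listed. The labelled cell type could therefore not be checked against its marker genes. Because the rule counts regions of this comparison, the sets, folds, p-values and FDRs of the members are given as a description with no test.

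Open chromatin lies mainly at promoters, where transcription starts, and at enhancers, short elements that raise transcription of a gene nearby or some distance away. Genes that are strongly expressed or that define a cell type often have several enhancers spread along the gene and its flanks, and neighbouring genes can share them. In the mammary gland, secretory luminal cells make milk under prolactin and STAT5, while the end of lactation brings STAT3 signalling, protease release and remodelling of the epithelium and its matrix.

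The number of listed regions per bin fell off steeply. No listed region lay in 13516 of the 24602 bins, and the hotspot bins had a median of 12 and a highest number of 26. There were 49 bins with 15 or more listed regions and 9 with 20 or more. At the edge of the rule, 76 bins held exactly 10 regions and 89 held exactly 9. The 760 regions just inside the rule were 90.9% set 1, 32.4% had an FDR under 0.05 and 47.5% were centred 3000 bp or less from where a protein-coding gene starts or ends. For the 801 regions just outside, these shares were 91.3%, 34.0% and 46.1%. The rule thus cuts a continuous range, and regions on either side of it had like values.

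**Figure D1:**
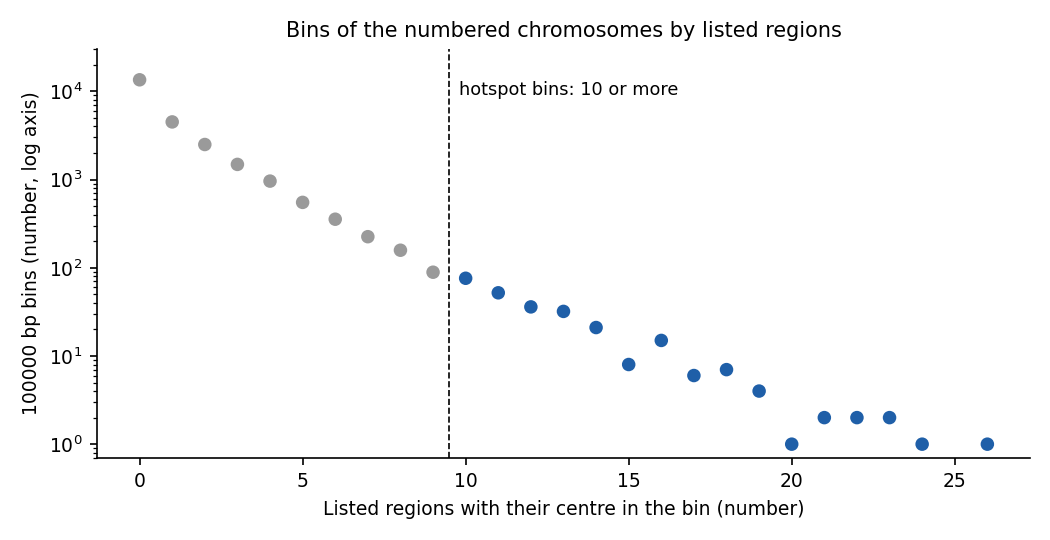
Number of 100000 bp bins (y axis, log scale) that hold each number of listed regions (x axis), with hotspot bins in blue and other bins in grey. The counts fall at each step from 13516 bins with no listed region through 89 bins with 9 and 76 bins with 10 to 8 bins with 15. Above that they are small and go up and down, and a single bin reaches 26.

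Members were nearly all of set 1. Of 3340 members, 3151 were in set 1 (94.3%) and 189 in set 2, beside 71.6% in set 1 among the 26313 other listed regions. Every member was of set 1 in 167 of the 266 bins, 1 bin was wholly of set 2, and 98 bins held both. In 58 bins a single set 2 region stood among set 1 regions, and 5 bins had more set 2 than set 1 regions. Bins dense in set 2 were rare in the table: 59 bins held 5 or more set 2 regions, and 6 of them were hotspot bins.

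An FDR under 0.05 was given in the authors' deposited table to 1186 members (35.5%), 1166 of set 1 and 20 of set 2. Of all regions listed in the table, 27.8% had such an FDR, 25.5% as regions of set 1 and 2.35% as regions of set 2. The rule used this contrast, so nothing is read from the difference. Within set 1 the share was 37.0% among members and 33.4% among the other listed regions, and within set 2 it was 10.6% and 9.19%. The same p-value went with a higher FDR in set 2 than in set 1. At the same p-value, a set 2 region 38372 bp from *IRF2BP2* had an FDR of 0.0887 and a set 1 region at *NPAS1* 0.0185. An FDR under 0.05 therefore asks for a smaller p-value in set 2, and its shares cannot be compared between the sets. A bin had a median of 4 members at that FDR, 122 bins had 5 or more, and 7 bins had none. The most was 11.

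Folds in the hotspots were modest. Members had a median fold of 2.27 in the authors' deposited table (interquartile range 1.79 to 3.08), and the other listed regions 2.69. Within set 1, which holds most members, the medians in the authors' deposited table were nearer, at 2.25 and 2.42. In set 2 alone the authors' deposited table gave medians of 2.85 and 3.61. The median width was 300 bp in both groups, and 4.37% of members and 2.12% of the others were 800 bp or wider.

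Hotspot bins lay where genes are dense. A hotspot bin overlapped a median of 5 protein-coding genes (interquartile range 2 to 7, highest 17), and a bin of the genome a median of 1. Of the hotspot bins, 50.8% overlapped 5 or more genes, against 3.54% of all bins. With no gene in the bin, 3 of 8962 bins were hotspots (0.0335%), with 4 genes 4.52%, with 6 genes 10.5% and with 9 or more genes 46 of 100 bins (46.0%, 36.6% to 55.7% as a 95% Wilson interval, for counting error alone and with bins taken as independent). The share rose at each step of gene number. Position on the chromosome showed no such difference: 11.7% of hotspot bins and 11.9% of all bins lay within 5 Mb of a chromosome end.

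**Figure D2:**
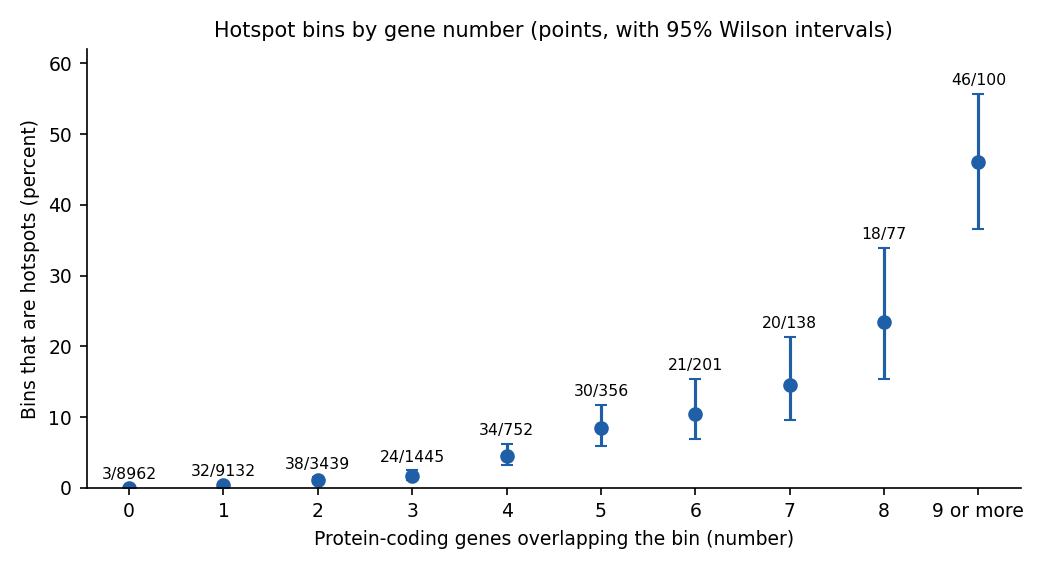
Percent of bins that are hotspots (y axis) by the number of protein-coding genes overlapping the bin (x axis), with 95% Wilson intervals and the number of hotspot bins over all bins above each point. The share rises from 3 of 8962 bins without a gene to 46 of 100 bins with 9 or more genes.

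Members also lay close to gene ends, which stand in for promoters here because the gene table gives no strand. The centre was within 3000 bp of an end for 1787 members (53.5%) and for 26.8% of the other listed regions. The median distance was 2603 bp for members and 12686.5 bp for the others. A further 22.5% of members lay inside a gene away from its ends, against 36.9% of the others. Crowding of genes moved with this share. In bins with 9 or more genes 80.1% of members and 80.1% of other listed regions were near an end, with 5 to 8 genes 66.3% and 62.1%, with 2 to 4 genes 41.5% and 37.5%, and with 0 or 1 gene 13.8% and 10.0%. At matched gene number the members were thus at most a few percentage points above the others.

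**Figure D3:**
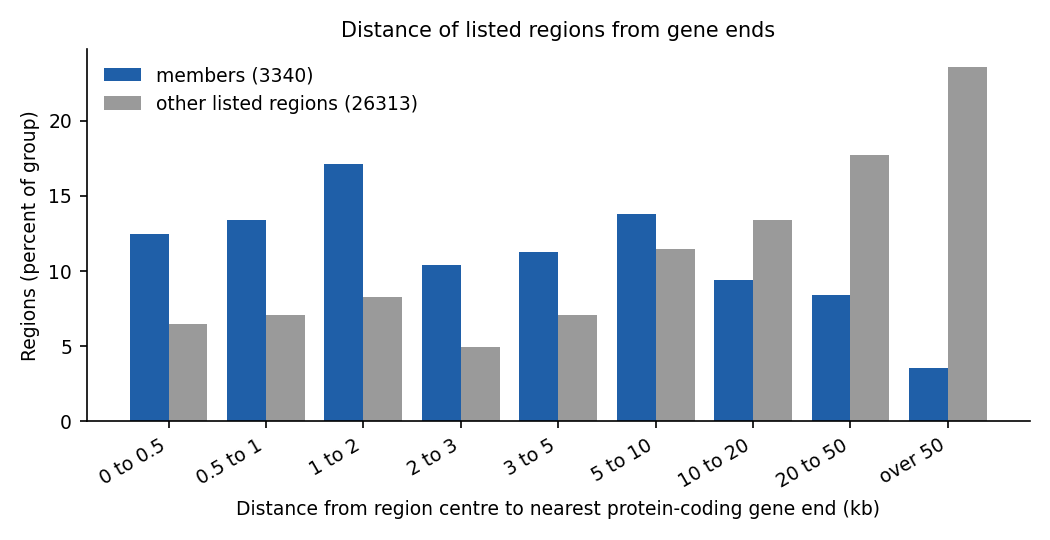
Percent of regions (y axis) by distance from the region centre to the nearest protein-coding gene end (x axis, classes of unequal width in kb), for the 3340 members in blue and the 26313 other listed regions in grey. Members exceed the others in every class up to 10 kb and fall below them in every class beyond it.

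The share of set 1 differed more where genes were few. In bins with 9 or more genes, 96.8% of members and 94.7% of the other listed regions were of set 1. With 0 or 1 gene the shares were 89.4% for members and 62.3% for the others. The median fold of set 1 in the authors' deposited table fell slightly with gene number in both groups, from 2.47 for members and 2.58 for the others with 0 or 1 gene to 2.17 and 2.16 with 9 or more.

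Genes for non-coding RNAs were also more frequent in hotspot bins. A tRNA gene lay in 12.8% of hotspot bins and 4.80% of all bins, a long non-coding RNA gene in 25.9% and 7.5%, and a microRNA gene in 15 hotspot bins (5.64%) and 0.589% of all bins. Among bins with 5 or more protein-coding genes the shares were 16.3% of hotspot bins and 7.19% of other bins for tRNA genes, and 5.19% and 3.26% for microRNA genes. Among bins with 0 to 4 protein-coding genes they were 9.16% and 4.64% for tRNA genes, and 6.11% and 0.449% for microRNA genes.

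Close spacing is fixed by the rule, which keeps bins with many regions, and is given as a description only. Another listed region lay within 500 bp of 34.2% of members and of 14.4% of the other listed regions, and within 5000 bp of 81.0% and 37.1%. The shortest stretch that held 10 members had a median of 52.5 kb over the bins. It was 8.15 kb in the tightest bin, on chromosome 19 from 55000001 to 55100000, where 5 members lay at *GALK1*, the galactokinase that starts the use of galactose. All 18 members of that bin were of set 1. Bins next to a hotspot held a mean of 3.99 listed regions, against 1.21 over all bins.

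Hotspot bins were spread unevenly over the chromosomes. Chromosome 19 had 37 of them (5.92% of its bins) with 480 members, and chromosome 25 had 25 (5.83%) with 325 members, which is 33.1% of all regions listed there. Chromosome 7 had 26 and chromosome 18 had 22. Chromosomes 12, 24 and 27 had 1 each, and chromosome 1, with 1574 bins, had 2. The mean number of protein-coding genes per bin was 2.37 on chromosome 19, 2.19 on 25, 1.48 on 7 and 2.22 on 18. It was 0.69, 0.79, 0.796 and 0.88 on chromosomes 12, 24, 27 and 1, and 1.18 over all bins. Chromosome 15, with a mean of 1.49, had 8 hotspot bins. The part of gene density in this spread was not tested.

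Adjoining hotspot bins formed 34 runs that took 77 of the 266 bins and 1009 members. Of these runs 27 were of 2 bins, and 7 were of 3 or 4. A member is counted at every gene that holds it or has an end within 3000 bp. Neighbouring genes can therefore share members. The run with most members, on chromosome 7 from 66500001 to 66900000, held 64 regions, 61 of set 1. Its leading genes were *APC2*, a relative of the Wnt pathway scaffold APC, and *SBNO2*, a transcriptional regulator, with 9 members each, and it includes *STK11*, the LKB1 kinase. The region with the smallest p there lay inside *SBNO2* at 66889301 to 66889800, with a fold of 2.30 and an FDR of 0.000515 in the authors' deposited table.

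On chromosome 29 a run from 45600001 to 45900000 held 54 regions, 53 of set 1, with 7 members at *PNPLA2*, the lipase that opens triglyceride breakdown, 8 at *CDHR5*, a cadherin-like protein of microvilli, and 5 at *IRF7*, a regulator of interferon genes. Another run there, from 41100001 to 41500000, had 45 members, all of set 1, and 13 of them lay at *AHNAK*, a giant scaffold protein under the plasma membrane. A run on chromosome 7 from 97900001 to 98200000 had 49 members, 48 of set 1, at *NFIX* (9 members), a nuclear factor I protein, *MAST1*, *CALR*, the calcium-binding chaperone calreticulin, *KLF1* and *JUNB*. The run of 49 members on chromosome 25 from 1400001 to 1700000 included the ribosomal protein gene *RPS2* and the vesicle GTPase gene *RAB26*, with 9 members each, and *TSC2*, an inhibitor of mTOR signalling, with 6. On chromosome 3 the run from 99200001 to 99500000 had 36 members, 35 of set 1, and most of its protein-coding genes have no symbol. Its first bin, to 99300000, held 12 of the members, none of them inside or within 3000 bp of a protein-coding gene. That bin holds 10 tRNA genes. Its region at 99282401 to 99283500 lay 28433 bp from the nearest protein-coding gene end. This region had a fold of 3.13 and an FDR of 1.3e-10 in the authors' deposited table. Of the 36 members, 19 had an FDR under 0.05. The last of the longer runs, on chromosome 7 from 67000001 to 67300000, had 31 members and included *PTBP1*, a splicing regulator, and *CFD*, the adipocyte and complement protease adipsin. Set 2 was absent from 17 of the 34 runs.

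The bin with most listed regions held no protein-coding gene. On chromosome 4 from 25500001 to 25600000 there were 26 members, all of set 1 and none within 3000 bp of a gene end. Their fold changes in the authors' deposited table ran from 1.67 to 6.89 with a median of 2.84, and 9 of them had an FDR under 0.05. The smallest p belonged to 25581901 to 25582800, with a fold of 2.07 and an FDR of 2.02e-05 in the authors' deposited table. This region lay 82702 bp from *KLF14*, the nearest protein-coding gene. The bin holds the microRNA gene *MIR29A* and 1 long non-coding RNA gene. As the map of bins shows, the members were spread over the bin but crowded in its last part, where 10 of them fell within 8.45 kb.

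The other bins among the 10 richest overlapped 4 to 14 protein-coding genes each, beside a median of 5 over hotspot bins and 1 over all bins. On chromosome 25 from 26100001 to 26200000 there were 24 members over 12 genes, all of set 1 and all within 3000 bp of a gene end, among them 5 at *PPP4C*, a protein phosphatase, and 4 each at *ALDOA*, the glycolytic aldolase, and *TBX6*, a T-box factor. The bin on chromosome 19 from 27500001 to 27600000 had 23 members of set 1, 8 of them at *PER1*, a component of the circadian clock, with *VAMP2*, *HES7* and *AURKB* beside it and 14 tRNA genes in the bin. Its smallest p was inside *AURKB*, a mitotic kinase, at 27576101 to 27577000, where the authors' deposited table gave a fold of 1.69 and an FDR of 4.78e-06. Within the run on chromosome 29 described above, the bin from 45800001 to 45900000 alone had 23 members, with *HRAS*, the small GTPase, among its genes.

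On chromosome 25 the bin from 1400001 to 1500000 had 22 members, 21 of set 1, over 14 genes. Its smallest p was inside *NDUFB10*, a subunit of respiratory complex I, at 1428301 to 1429000, with a fold of 1.96 and an FDR of 7.95e-06 in the authors' deposited table. The 22 members of the *APC2* bin on chromosome 7 from 66600001 to 66700000 had the fewest regions under an FDR of 0.05 of these 10 bins, with 4. In the bin on chromosome 29 from 43400001 to 43500000, 10 of 21 members lay at *PYGM*, the muscle glycogen phosphorylase, beside *MEN1*, the tumour suppressor menin. Its best region, inside *RASGRP2* at 43406501 to 43407100, had a fold of 2.37 and an FDR of 0.000274 in the authors' deposited table.

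Chromosome 7 from 97200001 to 97300000 had 21 members, all of set 1, and 11 of them lay at *ZSWIM4*, a zinc finger gene. Its region at 97231101 to 97232200 had a fold of 2.22 and an FDR of 1.18e-07 in the authors' deposited table. Of 20 members on chromosome 11 from 103500001 to 103600000, 18 of set 1, there were 8 at *FAM69B* and 7 at *AGPAT2*, an acyltransferase on the path to phosphatidic acid and triglyceride. The region at 103522601 to 103523500, 4587 bp from *AGPAT2*, had a fold of 2.31 and an FDR of 8.98e-13 in the authors' deposited table. The tenth bin, 1 of 4 with 19 regions, on chromosome 3 from 103300001 to 103400000, lay over the cluster of S100 genes, which code for small calcium-binding proteins, with 4 members each at *S100A5* and *S100A6*. Its region at 103336001 to 103337000, 114 bp from *S100A3*, had a fold of 3.02 and an FDR of 1.14e-09 in the authors' deposited table, and 18 of its 19 members were of set 1.

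**Figure D4:**
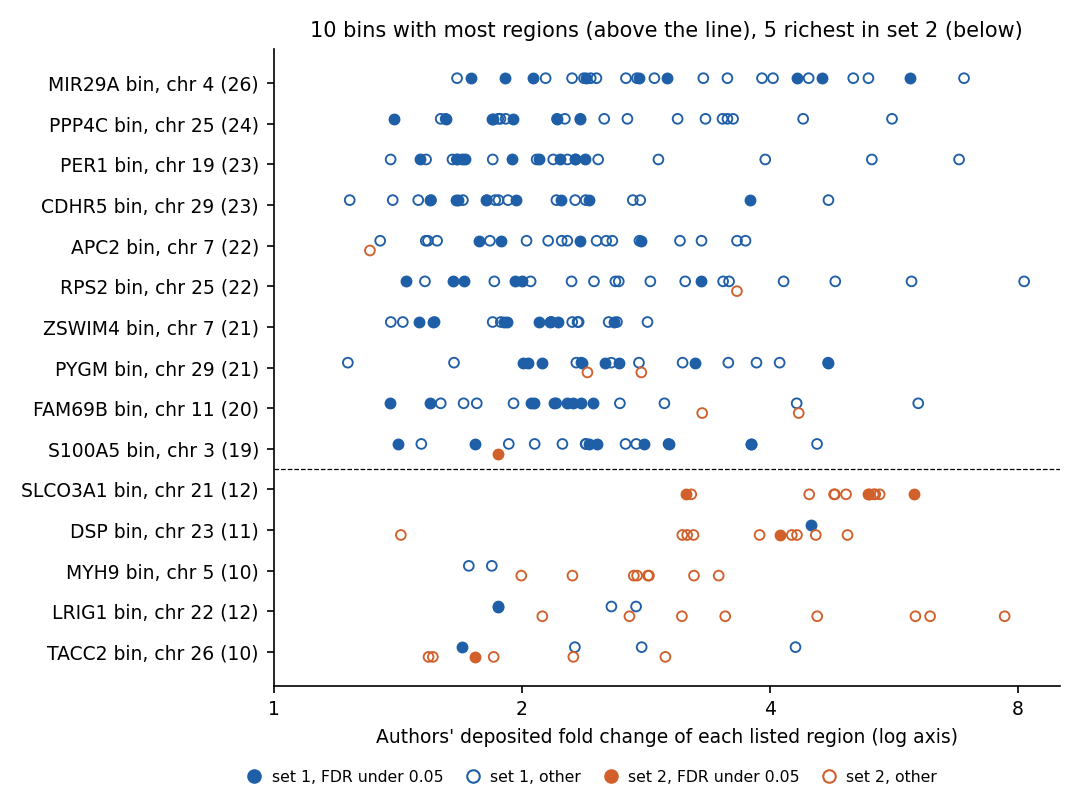
Fold change in the authors' deposited table (x axis, log scale) of every listed region in the 10 bins with most regions and the 5 bins in which set 2 makes up 50% or more, named by the gene with most members, with the number of regions in parentheses. Blue is set 1, orange is set 2, filled points have an FDR under 0.05. The upper 10 bins are almost wholly blue with folds mostly under 4, and the *SLCO3A1* bin is wholly orange with folds from 3.17 to 5.99.

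Set 2 made up 50% or more of the members in 5 bins, and 44 of the 189 set 2 members lay in them. The only bin wholly of set 2 was on chromosome 21 from 14200001 to 14300000. It held 12 regions, all inside *SLCO3A1*, a transporter of organic anions that include prostaglandins. Their fold changes in the authors' deposited table ran from 3.17 to 5.99 with a median of 5.11. The lowest of the 12 thus lay above the median of all set 2 members, 2.85 in the authors' deposited table, and 4 of the 12 had an FDR under 0.05. The smallest p belonged to 14215401 to 14215900, with a fold of 5.28 and an FDR of 1.2e-05 in the authors' deposited table. Another region at 14273501 to 14274000 had a fold of 3.17 and an FDR of 0.0028 in the authors' deposited table. The gene spans 375 kb and had 22 listed regions in all.

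The bin on chromosome 23 from 2500001 to 2600000 had 10 set 2 regions of 11, and 8 of these lay at *DSP*, the desmosome protein desmoplakin. The median fold of the 10 was 4.00 in the authors' deposited table, and the region 1261 bp from *DSP* at 2573301 to 2573600 had a fold of 4.12 and an FDR of 0.0485. At *MYH9*, the heavy chain of non-muscle myosin II, the bin on chromosome 5 from 73400001 to 73500000 held 8 set 2 regions of 10, with folds in the authors' deposited table from 2.0 to 3.47 and no region at an FDR under 0.05. *TACC2*, a centrosome protein, filled most of a bin on chromosome 26 from 10000001 to 10100000 with 6 set 2 regions of 10. Its region at 10012801 to 10013300 had a fold of 1.75 and an FDR of 0.0192 in the authors' deposited table.

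The sets could alternate in blocks within a bin. On chromosome 22 from 35000001 to 35100000, at *LRIG1*, a membrane protein that restrains EGF receptor signalling, and *SLC25A26*, a mitochondrial carrier, 4 set 1 regions stood in a row between 2 set 2 regions on one side and 6 on the other. The set 2 folds ran from 2.12 to 7.72 in the authors' deposited table, yet the region with the smallest p was of set 1, at 35047901 to 35048500 inside *LRIG1*, with a fold of 1.88 (FDR = 0.000313). In 13 bins with 3 or more regions of each set, the set changed at 46 of 139 steps from one region to the next. These bins include those at *KLF6*, *DUSP5*, *ARID5B* and *MACROD1*.

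**Figure D5:**
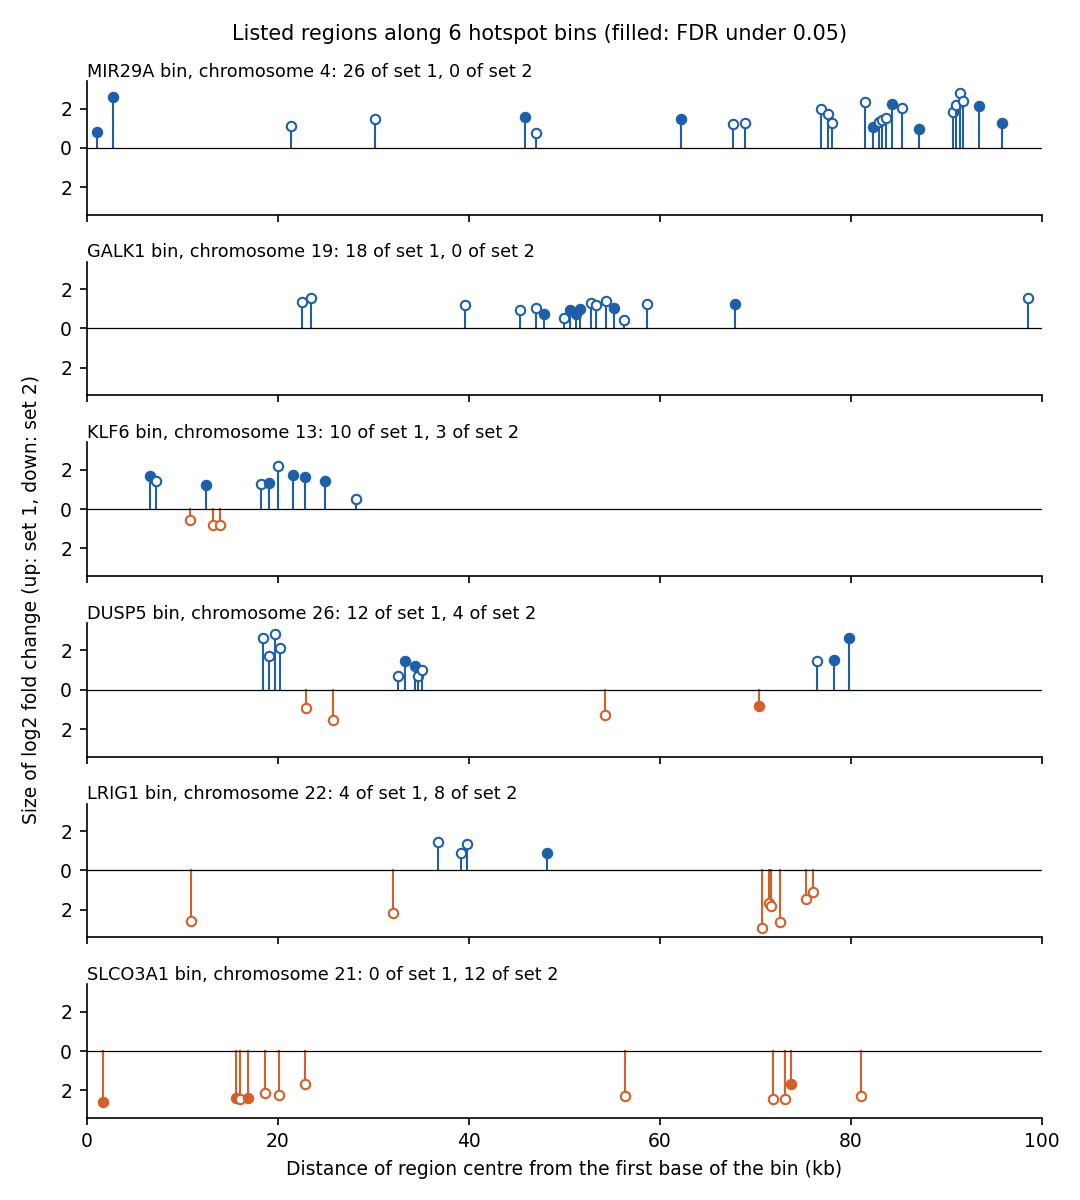
Listed regions along 6 hotspot bins, by distance of the region centre from the first base of the bin (x axis, kb) and size of the log2 of the authors' deposited fold change (y axis), upward in blue for set 1 and downward in orange for set 2, filled where the FDR is under 0.05. The 26 regions of the *MIR29A* bin crowd in its last part, the 18 regions of the *GALK1* bin in its middle, and in the *LRIG1* bin 4 set 1 regions stand between 2 groups of set 2 regions.

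Counted by gene, 1105 of 19063 protein-coding genes on numbered chromosomes had a member inside them or within 3000 bp of an end, and 16 genes had 10 or more. *TEAD1*, a transcription factor of the Hippo pathway, had most, with 20, all of set 1 and 10 of them at an FDR under 0.05. Its folds in the authors' deposited table ran from 1.45 to 4.09 with a median of 2.02. *TEAD1* spans 269 kb and has hotspot bins over it at 42300001 to 42400000 and 42500001 to 42600000 of chromosome 15. Long genes can gather more members, so the count per length differs: *TEAD1* had 0.726 members per 10 kb and *SAMD14* 5.75.

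*SAMD14*, on chromosome 19, is 18.4 kb long and had 14 members, all of set 1, 6 of them at an FDR under 0.05. Their folds in the authors' deposited table ran from 1.77 to 6.30 with a median of 3.93. *MAP3K12*, a kinase of the JNK pathway, with 11 members, and *PYGM*, with 10, were likewise short, at 15.2 kb and 12.1 kb. *HMGA2*, an architectural chromatin protein, had 12 members of set 1 inside it with a median fold of 4.09 in the authors' deposited table. The region of *HMGA2* with the smallest p, on chromosome 5 at 47282401 to 47282900, had a fold of 6.92 and an FDR of 3.05e-05 in the authors' deposited table. *PXN*, the focal adhesion adaptor paxillin, had 12 members of set 1, of which 8 had an FDR under 0.05, the largest share among these genes. Its folds were lower, with a median of 1.77 in the authors' deposited table.

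The remaining genes with 10 or more members include *LPP*, a LIM protein of cell adhesions (9 of set 1 and 1 of set 2), *MYO18A*, an unconventional myosin (10 and 1), *MACROD1*, an enzyme that removes ADP-ribose (7 and 3), and *LRIG1* (4 and 6). *SLCO3A1* was the only gene with 10 or more members that were all of set 2. Of these 16 genes, 10 had members of set 1 alone.

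Gene lists that fit the mammary gland differed in their share of genes over hotspot bins, and all of these lists are short. Over all protein-coding genes, 6.97% overlapped a hotspot bin, with a median gene length of 17.8 kb. Among 16 matched milk protein genes none did, and none of 12 genes of prolactin and STAT5 signalling did. At the share over all genes, very few would be found in lists of this size, so nothing is read from their absence. Of 25 genes of milk fat synthesis 2 did (8.00%). These were *DGAT1*, the enzyme of the last step of triglyceride synthesis, with 6 set 1 members, and *ACLY*, which makes cytosolic acetyl-CoA, with 1. The smallest p at *DGAT1* had a fold of 1.74 and an FDR of 0.00117 in the authors' deposited table.

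Of 26 matched genes of cell adhesion and the cytoskeleton, 12 overlapped a hotspot bin (46.2%). They carried 47 set 1 and 22 set 2 members, and their list has a longer median gene length, 44.9 kb. The part of gene length in this share was not tested. Besides *PXN*, *MYH9* and *DSP*, the list had 6 members at *JUP*, the junction protein plakoglobin (5 of set 1 and 1 of set 2), 5 at *ACTN4*, an actin crosslinker, and 4 at *ACTG1*, a cytoplasmic actin. *ITGA3*, *ITGB4*, *ACTB* and *TLN1* had 1 or 2 each. The set 2 members of the list were concentrated: 8 lay at *MYH9* and 8 at *DSP*.

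Involution and STAT3 genes overlapped a hotspot bin in 7 of 28 cases (25%). Their 30 members were all of set 1, beside 94.3% of all members. *BCL2L1*, a survival protein of the mitochondrial outer membrane, and *PLAU*, the urokinase plasminogen activator, had 9 each. *PLAU* is 6.04 kb long, and 4 of its 9 members had an FDR under 0.05, with folds in the authors' deposited table from 1.66 to 4.07. *SOCS3*, the feedback inhibitor of STAT3, had 3 members, and *FOXO3* and *TGFB1* had 2 each. *LIF*, a cytokine upstream of STAT3, overlapped a hotspot bin but had no member.

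Among 21 AP-1 and early response genes 5 overlapped a hotspot bin (23.8%). Their median gene length is 5.33 kb. The part of gene length or of crowding of genes in this share was not tested. *KLF6*, a zinc finger factor, had 9 members, 6 of set 1 and 3 of set 2. *FOSL1* had 5 members of set 1, *FOSB* had 1 of set 1 and 2 of set 2, *FOS* had 2 and *JUNB* had 1. The smallest p at *FOSL1*, a subunit of AP-1, had a fold of 1.77 and an FDR of 0.00736 in the authors' deposited table.

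Luminal epithelial markers overlapped a hotspot bin in 4 of 24 cases (16.7%). They had 30 members, all of set 1, beside 94.3% of all members. *EHF*, an ETS-family factor of epithelia, had 12, with folds in the authors' deposited table from 1.58 to 6.92 and 2 of them at an FDR under 0.05. *OCLN*, the tight junction protein occludin, had 10, *KRT7*, a keratin of simple epithelia, had 6 and *CLDN7*, a claudin, had 2. At *KRT7* the authors' deposited table gave the smallest p to a region with a fold of 2.19 and an FDR of 0.000104.

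Markers of other cell types the sample could hold also overlapped hotspot bins. The adipocyte list had 2 of 9 genes there (22.2%), a share above that of the luminal list, with 7 members at *PNPLA2* and 2 at *CFD*. The basal list had 2 of 19 genes (10.5%, *ITGB4* and *TPM2*) with 3 members. Immune cells had 2 of 22 (9.09%, *CD68* and *CD79A*) with 5 members. Endothelium had 1 of 14 (7.14%, *EGFL7*) with 2 members, and fibroblasts and matrix 1 of 18 (5.56%, *COL1A1*) with 2. All but 1 of these members were of set 1, beside 94.3% of all members, and *ITGB4* is also in the adhesion list. Of chromatin genes 1 of 19 overlapped a hotspot bin, *ARID1A*, a subunit of the SWI/SNF remodelling complex, with 9 set 1 members. Its smallest p had a fold of 2.77 and an FDR of 9.03e-07 in the authors' deposited table. The part of other cell types in these results was not tested.

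Not all hotspots lay among crowded genes: 35 of the bins overlapped 0 or 1 protein-coding gene. They held 434 members, 388 of set 1 and 46 of set 2. Those named here were chosen after their values were seen. In 5 of them every member lay inside the single gene, and in 11 no member lay inside a gene. *ERRFI1*, a feedback inhibitor of EGF receptor signalling, had a bin of 18 members of set 1 on chromosome 16 from 43800001 to 43900000. Its smallest p, at 43807301 to 43808100, was 85735 bp from *ERRFI1*, with a fold of 3.29 and an FDR of 5.14e-05 in the authors' deposited table. *ZFP36L1*, which promotes decay of mRNAs with AU-rich ends, had a bin of 16 set 1 members on chromosome 10 from 22500001 to 22600000. *DUSP5*, a nuclear phosphatase that turns off ERK, had one of 12 set 1 and 4 set 2 members on chromosome 26 from 20900001 to 21000000. Its smallest p, 43420 bp from the gene at 20979401 to 20980200, had a fold of 6.11 and an FDR of 9.87e-06 in the authors' deposited table. *KLF6*, *EDN1*, *FOXO3*, *FOS*, *HMGA2*, *TEAD1* and *EHF* were likewise the only gene of a hotspot bin. The bin beside that of *EHF*, on chromosome 15 from 17600001 to 17700000, was a hotspot with no gene, holding 8 set 1 and 2 set 2 members.

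In set 2 the smallest p after *SLCO3A1* lay inside *MACROD1* on chromosome 29 at 42716501 to 42717100, with a fold of 2.87 and an FDR of 0.000228 in the authors' deposited table.

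The 3 largest folds of each set belonged to regions of 200 or 300 bp that missed an FDR of 0.05 in the authors' deposited table. The largest fold of any member, 16.3 in set 2 in the authors' deposited table, belonged to a region of 200 bp, 629 bp from *CBFB*, with an FDR of 0.685. In set 1 the largest was 10.6 in the authors' deposited table, for a region of 300 bp with an FDR of 0.115. The widest member, 3000 bp on chromosome 25 at 2507601 to 2510600, had a fold of 3.04 and an FDR of 2.48e-07 in the authors' deposited table. All 13 members of 1500 bp or more were of set 1, beside 94.3% of all members.

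MicroRNA genes in hotspot bins numbered 24, in 15 bins, of 227 on numbered chromosomes (10.6%). MicroRNAs are short RNAs that pair with target mRNAs through their seed and lower their translation and stability. This group was chosen after its values were seen. The region nearest to each of the 24 was of set 1, beside 94.3% of all members. Neighbouring microRNA genes often shared the same nearest region. Of the 24, 19 had a member within 5000 bp. *MIR21*, often raised in epithelial tumours, lies in a hotspot bin of 11 members on chromosome 19, with 5 members within 5000 bp, 4 of set 1. The member at 10430701 to 10431100 overlapped *MIR21*, with a fold of 2.66 and an FDR of 0.0276 in the authors' deposited table. It is also counted at the protein-coding gene *VMP1*.

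*MIR27A* was overlapped by a member and *MIR23A* lay 24 bp from it in the *ZSWIM4* bin, where 5 members fell within 5000 bp of each. The authors' deposited table gave this region a fold of 2.17 and an FDR of 0.0972. *MIR200B*, *MIR200A* and *MIR429*, a cluster of microRNAs that keeps epithelial cells from a mesenchymal state, lay in a bin of 13 members on chromosome 16. The nearest member, 1252 bp from *MIR429* at 49820601 to 49821100, had a fold of 1.93 and an FDR of 0.00659 in the authors' deposited table. *MIR449C* overlapped a member on chromosome 20 at 23984101 to 23984600, with a fold of 2.21 and an FDR of 0.0345 in the authors' deposited table, and *MIR449A* and *MIR449B* lay 818 and 694 bp from it. At *MIR425*, paired with *MIR191* on chromosome 22, the nearest member, 1687 bp away at 51046101 to 51046900, had a fold of 1.78 and an FDR of 4.66e-08 in the authors' deposited table. That member is also counted at the protein-coding genes *DALRD3* and *WDR6*. *MIR126*, best known from endothelium, lay 722 bp from a member in the *AGPAT2* bin, and *MIR106B*, *MIR93* and *MIR25* lay 1997 to 2413 bp from one on chromosome 25.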

How the data were processed

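ATAC-seq was read through 1 table that the authors deposited for the comparison of 3 dry period and 3 lactation libraries, with 30714 regions. Fold changes are deposited as a ratio on the linear scale, and the p-value and the FDR, a q-value, are the authors' own. The signal value, a deposited score, was not used, and the deposited length column is the width in bp, another unit than the rest. Bowtie2 2.2.5 and MACS2 are named in the submitters' processing notes, which give neither a role. For the build of the genome, the program behind the comparison, a Tn5 offset of the reads and the treatment of duplicates, the answer is the same: not given in the sources used here. Where 1 broad change was listed as several rows, the count of its bin is raised; counting rows of a set 500 bp or less apart as 1 is among the alternatives.

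Starts were raised by 1 to count from 1. Gene names and distances were taken from RefSeq's gene table for ARS1.2, a goat assembly, with 19063 protein-coding genes on numbered chromosomes, and none of its coordinates are printed. The match was checked: on 29 of 29 chromosomes regions lay within 1000 bp of gene ends most often for their own chromosome's genes, and in 58 of 58 pieces that share was higher in place than 100000 bp away. Sequence sets of this build were not used here, so promoter motifs were not analysed here. The code that picks the bins was checked on simulated data with known answers, which is no test of the hotspots against chance.

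Members, lists and the naming rule were chosen with earlier results of these data known. Named by rule were the 10 bins with most regions, runs of adjoining hotspot bins, up to 6 bins with 50% or more of set 2, the 15 genes with most members and ties, list genes that overlap a hotspot bin, and the members with the smallest p and the largest folds. The 13 lists had 264 entries. Some items that the rule names are not reported here. No test was run on the members, because the rule used the comparison. Wilson intervals are at 95% and cover counting error only. Analyses used Python 3.11.15 with pandas 2.3.3, numpy 2.4.6 and scipy 1.17.1.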

Additional observations from a re-analysis of the deposited data

How the results depend on the processing

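Each of 7 summary values was computed under 7 other choices of bins, and 3 more changes of the gene measures, 52 values in all. Of these 23 stayed within 1.5 times the count or within the 95% interval of the share or median, and 29 did not. Shifting the bins by 50000 bp and keeping the left-out stretch of chromosome 23 moved none of the 7 values. A minimum of 8 regions gave 5405 members in 513 bins, 92.5% of them in set 1 and 48.9% near a gene end. A minimum of 12 gave 2008 members in 138 bins, with 95.9% and 55.2%. Bins of 50000 bp with a minimum of 5 gave 6178 members in 954 bins, 91.9% in set 1, 33.2% at an FDR under 0.05, a median fold of 2.33 in the authors' deposited table, 47.0% near a gene end and a median of 2 genes per bin. Counting only regions with an FDR under 0.01, with a minimum of 5, left 123 members in 22 bins, 100% of them in set 1 and, by construction, 100% at an FDR under 0.05, with a median fold of 2.2 in the authors' deposited table, 40.7% near a gene end and a median of 3 genes per bin. Counting rows of a set 500 bp or less apart as 1 gave 2026 members in 145 bins, 96.3% in set 1, 57.3% near a gene end and a median of 6 genes. With the limit for nearness at 1000 bp the share near an end was 25.9%, and at 10000 bp it was 78.7%. Members were nearer to gene ends than the other listed regions under each choice of bins, with the closest shares, 40.7% and 29.1%, among regions with an FDR under 0.01. No paired analysis was possible because the table holds no value per library, and single libraries could not be left out for the same reason. Depth is unknown, so how many regions went unlisted for want of reads cannot be said.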

Other observations

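Outside the numbered chromosomes, 736 listed regions lay on 73 other sequences. Bins cut in the same way there gave 6 with 10 or more listed regions, with 74 regions in all and a highest number of 15. Of these 72 were in set 1 and 2 in set 2, and 26 had an FDR under 0.05 in the authors' deposited table.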
